A study of Rattus norvegicus with 10 samples.

Results

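The RANKL, OPG and M-CSF axis is the set of secreted and membrane signals that controls the formation of osteoclasts, the multinucleated cells that resorb bone and calcified cartilage. Its 7 members were taken by gene symbol from the 17419 transcripts of the deposited expression table: the ligand RANKL (Tnfsf11), its receptor RANK (Tnfrsf11a), the soluble decoy receptor osteoprotegerin or OPG (Tnfrsf11b), the ligands M-CSF (Csf1) and IL-34 (Il34), their receptor CSF1R (Csf1r) and the transcription factor NFATc1 (Nfatc1). The measurements came from 10 libraries of rat knee cartilage, cut from the joint surface with a blade, in 4 groups. HC cartilage was untreated (n = 2). OAC cartilage was collected 4 weeks after injection of Papain/L-cysteine, a protease mixture that degrades cartilage matrix and is used as a chemical model of osteoarthritis (n = 3). SHAM cartilage was collected 10 weeks after the same injection, with AAV-DJ-GFP, an adeno-associated virus carrying green fluorescent protein, given at week 4 (n = 3). KT cartilage followed the SHAM schedule, except that the viruses given were AAV-DJ-Klotho and AAV-DJ-TGFBR2, which the labels describe as αKlotho and sTGFBR2 (n = 2). SHAM and KT thus share the papain injection, the virus capsid and the interval. They differ in the carried genes and in the number of vectors given. OAC differs from SHAM in both the interval and the virus. All labels give an age of 5 months. The sources used here do not name the promoter of the vectors, and the labels do not say that the libraries came from separate animals, so p-values measure the spread between libraries, which may be technical in part.

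RANKL on osteoblast-lineage cells, osteocytes, chondrocytes and lymphocytes binds RANK on myeloid precursors, and the signal passes through TRAF6, NF-kB and AP-1, with calcium signals from ITAM-bearing adaptors, to induce and activate NFATc1, which switches on the genes of the mature osteoclast. OPG binds RANKL and keeps it from RANK, and articular chondrocytes are a known source of OPG. M-CSF and IL-34 bind CSF1R, which keeps monocytes, macrophages and osteoclast precursors alive and lets them divide.

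Library depth, read back from the spacing of the low values, was 52.4 to 70.9 in units of 1000000 reads, of which 32.1 to 44.5 lay on listed genes. Expression is given as FPKM, a fragment count scaled to exon length and library size, so levels can be compared between genes per length. Cartilage markers were high in all 10 libraries: Col2a1, cartilage collagen, was at 727 FPKM or more and Acan, aggrecan, at 175 FPKM or more. Blood, marrow and bone transcripts were also present in every group, and the summed skeletal muscle markers reached 19054 FPKM in HC replicate 1 against 268 FPKM in HC replicate 2. All 6 members with signal were lower in HC replicate 1 than in HC replicate 2. Library names in the header of the deposited comparison table carry 3 tags, and the sources used here do not say what the tags mark. Tag 2 appears only for 2 of the 3 OAC libraries and no tag can be tied to a single library, so a comparison within a tag cannot be given. Groups were compared by limma on log2(FPKM + 1). A log2 change below is on that scale, which understates changes of low genes, and a gene is called at a Benjamini-Hochberg adjusted p below 0.05 over 11282 genes whose mean reached 0.5 FPKM.

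Of the 6 members that passed this filter, 4 were called in OAC against HC (Tnfrsf11a, Csf1 and Csf1r higher, Tnfrsf11b lower), where 29.7% of all tested genes were called, 23.4% higher and 6.27% lower. In SHAM against HC the same 4 members were called in the same directions, with 26.5% of all genes called, 21.0% higher and 5.48% lower. In KT against HC, 4 were called, Csf1, Csf1r and Il34 higher and Tnfrsf11b lower, with 18.2% of all genes called, 14.3% higher and 3.95% lower. None was called by limma between the 3 injected groups. At an unadjusted limma p below 0.05 there was 1 member in SHAM against OAC (Tnfrsf11b) and 1 in KT against SHAM (Il34). In KT against OAC there were 2 (both of these). At that unadjusted threshold 1018, 1646 and 2071 of the 11282 genes passed in these 3 comparisons. At an adjusted p below 0.05, 1.16%, 1.05% and 0.399% of all genes were called. The limma-voom fit on recovered reads also called 0 members in each of the 3 comparisons. The comparisons against HC share the same 2 control libraries, so their directions are not independent of each other. Where libraries of 2 groups are said below not to overlap, the share of all genes of which the same held was 56.3% for OAC and HC, 51.2% for SHAM and HC, 54.7% for KT and HC and 40.8% for KT and OAC.

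**Figure D1:**
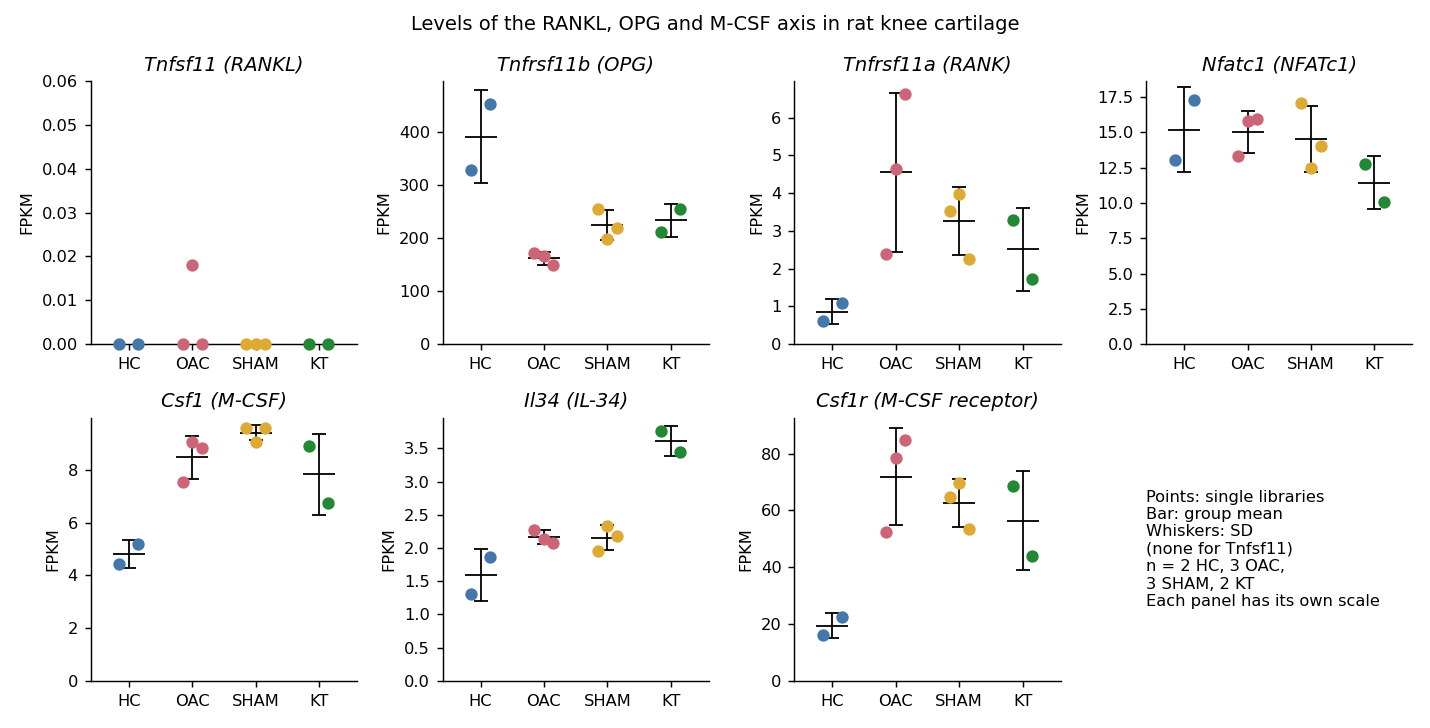
Level of each of the 7 members in every library (FPKM, linear axis from 0), by group. Points are libraries, bars the group mean and whiskers the SD (n = 2 or 3; none for Tnfsf11). OPG is highest in the 2 HC libraries (328 and 453 FPKM), RANK and CSF1R are lowest there, and Il34 is highest in the 2 KT libraries.

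The ligand that gives the axis its name was barely seen. Tnfsf11 (NM_057149, rn6 chr15:60482527-60512704, minus strand), the membrane-bound or shed cytokine RANKL, was listed at 0 FPKM in 9 of the 10 libraries and at 0.018 FPKM, the value of 1 read, in OAC replicate 2. The limit that a count of 0 allows, 3 reads, is 0.0445 to 0.0603 FPKM for this transcript, counting error only. It did not pass the filter and was not tested. The deposited table lists 2 genomic copies for this transcript. Among transcripts with 2 copies, 45.0% were at 0 in every library, against 14.2% of those with 1 copy. Rps9 and Rps19, ribosomal protein genes used by every cell, also have 2 listed copies and lay at 0.284 to 0.944 and 0.063 to 0.256 FPKM, although other 2-copy ribosomal genes such as Rps14 reached at least 844 FPKM. A value of 0 here therefore says that the gene was listed at 0, and the ratio of RANKL to OPG, usually taken as the balance of the axis, could not be used as a measure in these libraries.

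OPG, the decoy receptor, was the most abundant member by far. Tnfrsf11b (NM_012870, rn6 chr7:93798580-93826586, minus strand) lay at the 99.0th percentile of listed genes. It was at 328 and 453 FPKM in HC, at 172, 166 and 148 FPKM in OAC, at 255, 199 and 218 FPKM in SHAM, and at 211 and 255 FPKM in KT. Both HC libraries were above all 8 injected libraries, the 3 OAC libraries were the lowest of the 10, and SHAM and KT overlapped. The HC mean of 391 ± 88.1 FPKM (SD, n = 2) was 2.41 times the OAC mean of 162 ± 12.3 (SD, n = 3). On the log2 scale OPG fell by 1.25 in OAC (SE 0.175, 95% confidence interval −1.65 to −0.85, limma adjusted p = 0.00194).

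At 10 weeks the OPG level lay between those of HC and OAC. In SHAM its mean was 224 ± 28.5 FPKM (SD, n = 3), and it fell by 0.79 on the log2 scale against HC (SE 0.175, limma adjusted p = 0.0118). Without HC replicate 2 that difference was −0.56 with a limma adjusted p of 0.0568. In KT the mean was 233 ± 31.2 FPKM (SD, n = 2) and the log2 difference from HC was −0.73 (SE 0.192, limma adjusted p = 0.0322). This call was lost without HC replicate 2 (limma adjusted p = 0.104), KT replicate 1 (0.144), KT replicate 2 (0.0574) or OAC replicate 2 (0.0562), with array weights (0.104) and with the replicate number as a block (0.0736). SHAM lay above OAC in every library, by 0.46 on the log2 scale (SE 0.157, 95% confidence interval 0.10 to 0.82), a difference that did not pass limma's threshold (adjusted p = 0.355, unadjusted 0.0170). Groups did not overlap in 17.9% of all genes in that comparison. The authors' deposited table, made with DESeq2, gives OPG a log2 difference of 0.50 in SHAM over OAC with an adjusted p of 0.00474, a call that 3.63% of all its genes share. KT and SHAM did not differ detectably in OPG, at 0.06 (95% confidence interval −0.34 to 0.45, limma adjusted p = 0.905).

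RANK, the receptor through which RANKL acts on osteoclast precursors, moved the opposite way from OPG. Tnfrsf11a (NM_001271235, rn6 chr13:25778306-25835802, plus strand) was at 0.628 and 1.10 FPKM in HC, at 2.40, 4.64 and 6.62 FPKM in OAC, at 3.54, 3.99 and 2.25 FPKM in SHAM, and at 3.30 and 1.74 FPKM in KT. Every injected library was above both HC libraries, and the 3 injected groups overlapped one another. These low levels rested on 104 to 1046 reads per library. The OAC mean of 4.55 ± 2.11 FPKM (SD, n = 3) was 5.26 times the HC mean of 0.866 ± 0.337 (SD, n = 2), and the log2 change was 1.51 (SE 0.346, limma adjusted p = 0.0126). The authors' deposited table gives 2.21 for it, with an adjusted p of 0.000148, where it calls 25.7% of its genes. Without HC replicate 1, the library rich in muscle transcripts, it was 1.32 with a limma adjusted p of 0.0599.

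The later RANK differences were smaller and less firm. SHAM was above HC by 1.178 on the log2 scale (SE 0.346, limma adjusted p = 0.0354). That call was lost without HC replicate 1 (limma adjusted p = 0.137), HC replicate 2 (0.0596), SHAM replicate 1 (0.0839), SHAM replicate 2 (0.105) or OAC replicate 2 (0.0540), without the filter (0.0554), with quantile normalization (0.0592), with voom on recovered reads (0.0566), with array weights (0.122) and with the replicate number as a block (0.0962). The authors' deposited table gives a log2 difference of 1.77 with an adjusted p of 9.21e-05, where it calls 20.5% of its genes. KT exceeded HC by 0.89 (SE 0.378, limma adjusted p = 0.135), which did not pass the threshold. RANK differed from OAC by −0.33 in SHAM (limma adjusted p = 0.876) and from SHAM by −0.29 in KT (limma adjusted p = 0.748, 95% confidence interval −1.07 to 0.50), a wide interval around 0.

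CSF1R, the receptor kinase of the mononuclear phagocyte lineage, was second only to OPG in FPKM among the members in all 10 libraries. Csf1r (NM_001029901, rn6 chr18:56431891-56458300, plus strand) was at 16.3 and 22.6 FPKM in HC, at 52.4, 78.3 and 84.7 FPKM in OAC, at 64.9, 69.8 and 53.3 FPKM in SHAM, and at 68.7 and 44.0 FPKM in KT. Both HC libraries lay below all 8 injected libraries, while OAC, SHAM and KT overlapped. The OAC mean of 71.8 ± 17.1 FPKM (SD, n = 3) was 3.69 times the HC mean of 19.4 ± 4.42 (SD, n = 2), a log2 change of 1.82 (SE 0.258, limma adjusted p = 0.00203). SHAM was 3.22-fold and KT 2.90-fold above HC, with log2 changes of 1.65 (SE 0.258, limma adjusted p = 0.00266) and 1.47 (SE 0.283, limma adjusted p = 0.0108). The KT call was lost without KT replicate 1 (limma adjusted p = 0.0607) and with array weights (0.0568). KT minus SHAM was −0.18 (95% confidence interval −0.76 to 0.41, limma adjusted p = 0.799).

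The promoter of Csf1r is shown because PU.1, the product of Spi1 and a known activator of Csf1r in myeloid cells, belongs to the ETS family of factors, whose sites share the letters GGAA, and because Spi1 was among the genes that rose (given with the pathway genes). The RefSeq promoter table, build GRCr8, held 2 of the 7 members. The window printed is the 250 bases before the start of Csf1r at chr18:56834129-56834378 on the plus strand, with GGAA on either strand in capitals.
Csf1r: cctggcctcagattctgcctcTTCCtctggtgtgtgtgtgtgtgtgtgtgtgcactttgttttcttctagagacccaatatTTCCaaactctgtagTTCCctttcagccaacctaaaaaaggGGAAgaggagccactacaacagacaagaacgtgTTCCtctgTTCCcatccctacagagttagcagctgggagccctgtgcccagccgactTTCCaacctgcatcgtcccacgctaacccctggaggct
It held 7 matches to GGAA, which on the other strand reads TTCC, and 0 to the longer string GAGGAAGT. GGAA alone was found in 93.2% of the 33469 promoters of the table, with a median of 3 matches, and 3.97% held at least 7. GAGGAAGT, which contains GGAA, was found in 2.04%. These matches describe the letters only.

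The ligands of CSF1R were both lowest in HC, but Csf1 was highest in SHAM and Il34 in KT. Csf1 (NM_023981, rn6 chr2:210522375-210550546, minus strand), which encodes M-CSF, was at 4.45 and 5.19 FPKM in HC, at 7.54, 9.07 and 8.84 FPKM in OAC, at 9.59, 9.08 and 9.59 FPKM in SHAM, and at 8.93 and 6.75 FPKM in KT. Both HC libraries were again the lowest of the 10, and the SHAM libraries the highest. The OAC mean of 8.48 ± 0.823 FPKM (SD, n = 3) was 1.76 times the HC mean of 4.82 ± 0.526 (SD, n = 2), a log2 change of 0.70 (SE 0.129, limma adjusted p = 0.00544). In SHAM, at 9.42 ± 0.296 FPKM (SD, n = 3), the change against HC was 0.84 (SE 0.129, limma adjusted p = 0.00241). In KT it was 0.59 (SE 0.141, limma adjusted p = 0.0234), a call lost without HC replicate 1 (limma adjusted p = 0.0745) or KT replicate 1 (0.108), with array weights (0.0958) and with the replicate number as a block (0.0660). Both KT libraries were below the 3 SHAM libraries, by 0.25 on the log2 scale, which did not pass the threshold (limma adjusted p = 0.405). In KT against SHAM, 32.4% of all genes had groups that did not overlap.

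Il34, the other CSF1R ligand, was highest in KT. Il34 (NM_001025766, rn6 chr19:40890544-40904364, plus strand) was at 1.315 and 1.87 FPKM in HC, at 2.28, 2.13 and 2.08 FPKM in OAC, at 1.95, 2.33 and 2.185 FPKM in SHAM, and at 3.765 and 3.45 FPKM in KT, from 122 to 358 reads. The KT libraries were the highest of the 10, the HC libraries the lowest, and OAC and SHAM lay together between them. The KT mean of 3.61 ± 0.226 FPKM (SD, n = 2) was 2.26 times the HC mean of 1.59 ± 0.395 (SD, n = 2), a log2 change of 0.84 (SE 0.131, limma adjusted p = 0.00523). This call held without each HC or KT library in turn. KT was 1.67 times SHAM, a log2 difference of 0.55 (SE 0.120, 95% confidence interval 0.27 to 0.82) that did not pass limma's threshold over all genes (adjusted p = 0.0924, unadjusted 0.00144). The authors' deposited table gives 0.78 for this difference with an adjusted p of 0.0436, where it calls 3.66% of its genes.

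In the other injected groups Il34 did not pass the threshold against HC. It differed from HC by 0.29 on the log2 scale in both OAC (SE 0.120, limma adjusted p = 0.096) and SHAM (limma adjusted p = 0.107). Without HC replicate 2 the difference was 0.45 in each, with limma adjusted p of 0.0356 in OAC and 0.0391 in SHAM. KT exceeded OAC by 0.54 (limma adjusted p = 0.106).

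NFATc1, the master transcription factor of osteoclast formation, did not follow the receptors. Nfatc1 (NM_001244933, rn6 chr18:77203519-77322690, minus strand) was at 13.1 and 17.3 FPKM in HC, at 13.3, 15.8 and 15.95 FPKM in OAC, at 17.1, 12.5 and 14.0 FPKM in SHAM, and at 12.8 and 10.1 FPKM in KT. HC, OAC and SHAM overlapped. Both KT libraries lay below all HC and OAC libraries but overlapped SHAM, and the lower of them was the lowest of all 10. The log2 difference from HC was −0.01 in OAC (95% confidence interval −0.39 to 0.38, limma adjusted p = 0.98), −0.06 in SHAM (limma adjusted p = 0.828) and −0.38 in KT (SE 0.186, limma adjusted p = 0.190). KT differed from SHAM by −0.32 (95% confidence interval −0.70 to 0.07, limma adjusted p = 0.418). NFATc1 is also made in lymphocytes and other cells and is controlled at the protein level by calcineurin, which transcript levels do not show.

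**Figure D2:**
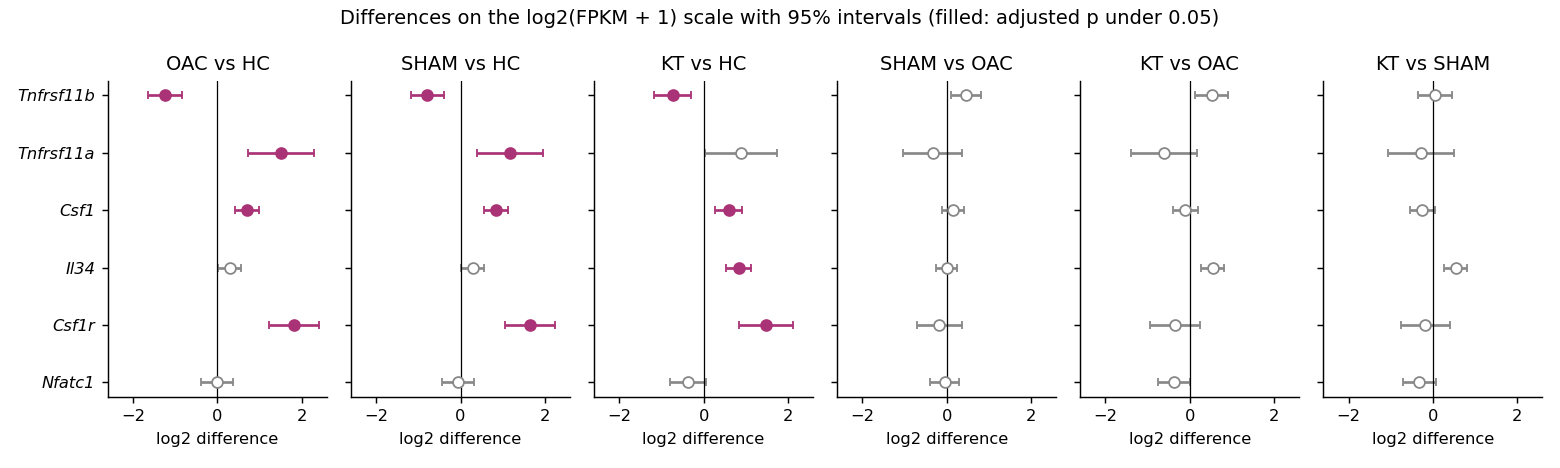
Log2 difference of each tested member on log2(FPKM + 1) in the comparisons made, with the 95% confidence interval of the limma fit over 10 libraries. Against HC, the OPG interval lies below 0 and the CSF1R and M-CSF intervals above 0 in all 3 injected groups, whereas NFATc1 spans 0 in each.

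The level of OPG relative to RANK differed widely between libraries. OPG was 523 and 410 times RANK in HC on the FPKM scale. It was 71.7, 35.7 and 22.4 times RANK in OAC, 72.0, 49.8 and 97.3 times in SHAM, and 63.9 and 146 times in KT. Both HC libraries were above all injected libraries, and OAC, SHAM and KT overlapped. The ratio of Csf1 to Il34 was 3.38 and 2.77 in HC, 3.31 to 4.26 in OAC, 3.89 to 4.91 in SHAM, and 2.37 and 1.96 in KT. M-CSF thus exceeded IL-34 in every library, least in the 2 KT libraries. CSF1R was 3.66 and 4.34 times its ligand M-CSF in HC and 5.56 to 9.58 times in the injected groups. These ratios were chosen after the levels were seen and carry no test.

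**Figure D3:**
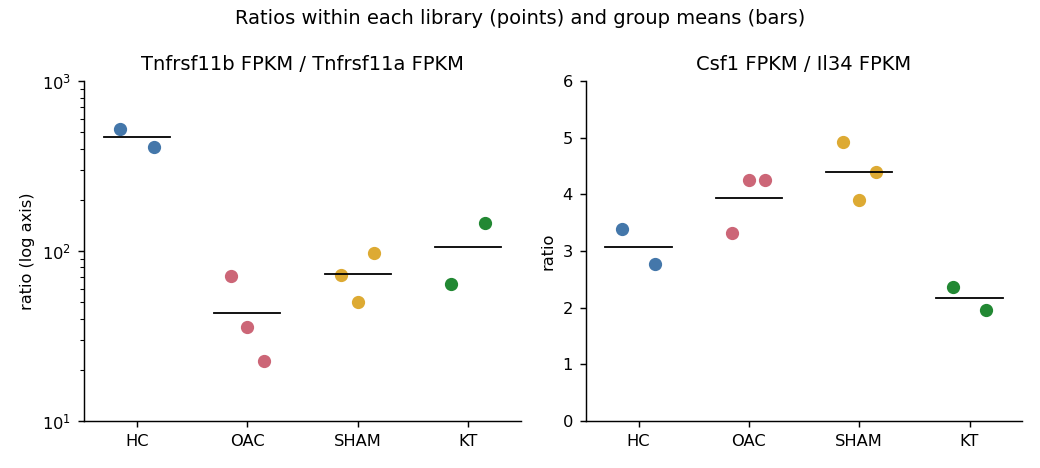
Ratios of member levels (FPKM over FPKM) in each library, by group. OPG over RANK is 523 and 410 in HC and at most 146 elsewhere, and Csf1 over Il34 is lowest in the 2 KT libraries (2.37 and 1.96).

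In bulk tissue, fewer cells of a type and less RNA per cell cannot be told apart, and the receptors of the axis are known as genes of myeloid cells. The summed level of 11 macrophage and monocyte markers was 145 to 166 FPKM in HC, 352 to 457 in OAC, 532 to 756 in SHAM and 590 to 792 in KT, and none of the 11 was at 0 in a whole group. Of these 11 markers 9 were called higher in OAC against HC, 10 in SHAM and 10 in KT, and 0 lower. Beside the marker counts of this paragraph against HC stand 23.4%, 21.0% and 14.3% of all genes called higher in OAC, SHAM and KT. The shares called lower were 6.27%, 5.48% and 3.95%. As a percentage of that sum, CSF1R was 9.80 to 15.5% in HC, 13.6 to 24.1% in OAC, 9.23 to 12.2% in SHAM and 5.56 to 11.6% in KT, so HC overlapped each injected group. RANK was 0.377 to 0.760% of the sum in HC and 0.620 to 1.88% in OAC. It was 0.402 to 0.665% in SHAM and 0.220 to 0.559% in KT, so HC again overlapped each injected group. M-CSF was 2.67 to 3.57% of the sum in HC and 1.95 to 2.51% in OAC. In SHAM it was 1.20 to 1.80% and in KT 0.853 to 1.51%, so here HC lay above each injected group. The neutrophil sum was 2025 to 2541 FPKM in HC, 12605 to 16137 in OAC, 10177 to 12164 in SHAM and 3647 to 8310 in KT. Of 8 tested neutrophil markers 8 were called higher in OAC against HC, 8 in SHAM and 3 in KT. For the cells that make OPG, the chondrocyte sum was 11611 to 18596 FPKM in HC, 10049 to 10879 in OAC, 7323 to 9653 in SHAM and 8534 to 10215 in KT. The 11 chondrocyte markers were mixed, with 3 called higher and 2 lower in OAC against HC, 2 and 1 in SHAM, and 0 and 1 in KT. The osteoblast and osteocyte sum was 1077 to 1990 FPKM in HC, 3165 to 4732 in OAC, 1781 to 3502 in SHAM and 862 to 2630 in KT. Of its 9 markers 1 was called higher and 0 lower in OAC against HC, 1 and 1 in SHAM, and 0 and 1 in KT. The synovial fibroblast sum was 95.4 to 147 FPKM in HC, 188 to 223 in OAC, 158 to 195 in SHAM and 263 to 287 in KT. Of its 8 markers 5 were called higher in OAC against HC, 3 in SHAM and 5 in KT, and 0 lower. In KT against SHAM 0 were called, and in KT against OAC 0 were called higher and 1 lower. The part of these cell types in the members' results was not tested.

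The other genes of the pathway were read from 7 lists. Beside each count of genes called higher stand the 23.4% of all genes called higher in OAC against HC. These were 21.0% in SHAM and 14.3% in KT, and the shares called lower were 6.27%, 5.48% and 3.95%. Where list genes are counted as rising or falling, they were called higher or lower. The shares belong to the fit described above, and calls over all genes also moved with the setting. In OAC against HC, 2641 of 11282 genes were called higher, 1596 with array weights and 1831 with the replicate block. Genes downstream of NFATc1 and effectors of the mature osteoclast rose most, with 11 of 12 tested (91.7%) called higher and 0 lower in OAC against HC and a median log2 change of 1.98, against 0.14 over all genes. Acp5, the tartrate-resistant acid phosphatase, had a mean of 140 ± 91.1 FPKM over the 2 HC libraries and 1464 ± 843 FPKM over the 3 OAC libraries (SD), a log2 change of 3.30 (SE 0.908, limma adjusted p = 0.0254). Ctsk, the collagenolytic protease cathepsin K, changed by 3.20 (SE 0.675, limma adjusted p = 0.0092), and Atp6v0d2, a proton pump subunit, by 2.82 (SE 0.639, limma adjusted p = 0.0121). All 3 calls were lost without HC replicate 1, at limma adjusted p of 0.125, 0.0512 and 0.0685, and the list then had 5 genes called higher. Without OAC replicate 2 or OAC replicate 3, 7 were called higher, and Acp5 was not (0.0768 and 0.0729). With array weights or the replicate block 7 were called, and Acp5 was not (0.0562 and 0.0663). In SHAM against HC 8 of the 12 were called higher, among them Car2, the carbonic anhydrase that supplies protons, by 1.74 (limma adjusted p = 0.00353). That count was 3 without HC replicate 1, 4 without SHAM replicate 1 or SHAM replicate 2, 4 with array weights or the replicate block, and 5 without the filter or with quantile normalization. In KT against HC 2 (16.7%) were called higher, near the 14.3% of all genes, Car2 and Ostm1, a chaperone of the lysosomal chloride exchanger. That count was 1 without HC replicate 1, 0 without HC replicate 2 or KT replicate 1, and 0 without the filter or under either other scaling. Without KT replicate 2 neither Car2 (limma adjusted p = 0.103) nor Ostm1 (0.0598) was called, and neither was with array weights (0.102 and 0.160). Ostm1 was also lost with voom (0.0566) and the replicate block (0.0856).

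The signalling steps between receptor and NFATc1 changed less. Of 19 tested genes of RANK and NF-kB signal transduction, 6 (31.6%) were called higher and 0 lower in OAC against HC, with a median of 0.17, close to the 23.4% and 0.14 over all genes. Under median-of-ratios or quantile scaling these counts were 2 and 2, without HC replicate 1 they were 3 and 1, without OAC replicate 2 or OAC replicate 3 they were 3 and 0, and with the replicate block 2 and 0. In SHAM and KT against HC 5 (26.3%) and 2 (10.5%) were called higher, against 21.0% and 14.3% of all genes. Under median-of-ratios scaling these were 1 and 1. Over all 11282 genes that scaling gave 1731 higher and 1356 lower in OAC against HC, from 2641 and 707. Quantile scaling gave 1727 and 1274, and the replicate block 1831 and 375. With median-of-ratios scaling the genes called higher went from 2368 to 1670 in SHAM against HC and from 1611 to 1054 in KT against HC. Src, the kinase needed for the ruffled border, rose by 1.37 (SE 0.200, limma adjusted p = 0.0022), and its call held when each HC or OAC library was left out in turn. Traf6, the adaptor of RANK, rose by 0.45 (limma adjusted p = 0.0338) and Ikbkg, the regulatory subunit of the IKK complex, by 0.47 (limma adjusted p = 0.0375). Without HC replicate 1 these were 0.33 and 0.40 with limma adjusted p of 0.164 and 0.147, and the Traf6 call was also lost without OAC replicate 2 (0.0890) or OAC replicate 3 (0.0980). The Ikbkg call was also lost without HC replicate 2 (0.0594), OAC replicate 1 (0.0769) or OAC replicate 3 (0.109). Neither gene was called without the filter, under either other scaling, with array weights or with the replicate block (limma adjusted p 0.0509 to 0.127 for Traf6 and 0.0565 to 0.176 for Ikbkg), and Ikbkg was not with voom (0.0560). Of 17 genes of ITAM co-stimulation and calcium signalling, 9 were called higher and 1, Nfatc2, lower in OAC against HC, with a median of 0.74. In SHAM against HC 9 rose, and in KT against HC 8 did (5 without HC replicate 1 or with the replicate block, 4 without KT replicate 1). The adaptors Tyrobp (DAP12) and Fcer1g (FcR gamma) rose by 1.92 (limma adjusted p = 0.000656) and 1.71 (limma adjusted p = 0.000743). Oscar, a receptor that pairs with FcR gamma, changed by 1.60 (limma adjusted p = 0.0255), a call lost without HC replicate 1 (0.105), HC replicate 2 (0.0506), OAC replicate 2 (0.0776) or OAC replicate 3 (0.0619), with array weights (0.0614) and with the replicate block (0.0617).

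Trem2, the DAP12-coupled receptor, was the pathway gene that differed among the injected groups. Its mean was 6.06 ± 0.318 FPKM in HC (SD, n = 2), 11.1 ± 1.82 in OAC (SD, n = 3), 37.9 ± 11.5 in SHAM (SD, n = 3) and 60.3 ± 27.3 in KT (SD, n = 2). It was higher in SHAM than OAC by 1.66 on the log2 scale (SE 0.266, limma adjusted p = 0.0218) and higher in KT than OAC by 2.27 (SE 0.297, limma adjusted p = 0.0331). The first call was lost without any 1 of the 3 OAC libraries, SHAM replicate 2 or SHAM replicate 3 (limma adjusted p 0.0652 to 0.105), and the second without any 1 of the OAC libraries or KT replicate 2 (0.0637 to 0.253) and without the filter (0.0505). Among all 7 lists it was the only gene called by limma between injected groups.

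The transcription factors included both sides of the osteoclast decision. Of 12 factors that favour osteoclasts 5 were called higher in OAC against HC, 7 in SHAM and 4 in KT, and 0 were called lower. The OAC count was 3 without HC replicate 1, OAC replicate 2 or OAC replicate 3, and the SHAM count was 3 without HC replicate 1 and 4 without HC replicate 2, SHAM replicate 1 or SHAM replicate 2. Spi1 (PU.1), which also acts upstream of Csf1r and Tnfrsf11a, had means of 8.40 ± 0.201 FPKM in the 2 HC libraries, 30.5 ± 1.04 in the 3 OAC libraries, 33.9 ± 1.67 in the 3 SHAM libraries and 22.3 ± 4.52 in the 2 KT libraries (SD). Its log2 change in OAC was 1.74 (SE 0.119, limma adjusted p = 0.000604). Jdp2, an AP-1 factor, rose by 1.51 (limma adjusted p = 0.00696), and Prdm1 (Blimp1), which represses the repressors, by 1.03 (limma adjusted p = 0.0184), lost without HC replicate 1 (0.0774), OAC replicate 2 (0.0523) or OAC replicate 3 (0.0551) and with the replicate block (0.0519). Among 6 tested repressors of osteoclast formation, Bcl6 fell from 58.7 ± 10.4 FPKM in HC (SD, n = 2) to 28.7 ± 1.76 FPKM in OAC (SD, n = 3, limma adjusted p = 0.00163), and Irf8, a factor that holds back NFATc1, rose by 0.95 (limma adjusted p = 0.0161, with 0.0754 without HC replicate 2 and 0.0501 with array weights).

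The next list held 14 genes that transmit or dampen the CSF1R signal or encode other receptors of IL-34. Of these, 10 were called higher and 0 lower in OAC against HC, with a median of 0.76. They included Ptpn6 (SHP-1), a phosphatase that dampens the receptor, at 1.40 (limma adjusted p = 0.00138), Inpp5d (SHIP1), a lipid phosphatase with a like role, at 1.01 (limma adjusted p = 0.00138), and Sdc1, syndecan-1, a separate IL-34 receptor, at 2.04 (limma adjusted p = 0.00727). In SHAM and KT against HC 9 and 5 of the 14 rose, with Ccnd1, the cell cycle gene cyclin D1, at 1.54 in KT (limma adjusted p = 0.00387). With array weights these counts were 5 and 2. Over all 11282 genes, those called higher then went from 2368 to 1387 in SHAM and from 1611 to 429 in KT.

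Among 24 tested regulators of RANKL and OPG expression, 8 were called higher and 4 lower in OAC against HC, 8 and 3 in SHAM, and 6 and 4 in KT. The shares called higher were 33.3%, 33.3% and 25%, against 23.4%, 21.0% and 14.3% over all genes. Those called lower were 16.7%, 12.5% and 16.7%, against 6.27%, 5.48% and 3.95% over all genes. Without HC replicate 1 the OAC counts were 5 and 5, and without KT replicate 1 the KT counts were 1 and 2. Sema3a, a secreted protein that favours bone formation over resorption, fell by 1.48 in OAC (SE 0.232, limma adjusted p = 0.00299). Il17ra and Il1b, a receptor and a cytokine that raise RANKL in stromal cells, rose by 1.24 (limma adjusted p = 0.00638) and 1.05 (limma adjusted p = 0.00866). Sost, the osteocyte-made Wnt inhibitor sclerostin, had means of 94.8 ± 19.9 FPKM in the 2 HC libraries, 40.7 ± 12.3 in the 3 SHAM libraries and 25.3 ± 13.9 in the 2 KT libraries (SD). It fell by 1.96 in KT on the log2 scale (SE 0.393, limma adjusted p = 0.0126, with 0.0573 without KT replicate 2 and 0.0776 with array weights), and Il11, a gp130 cytokine, rose there by 1.41 (limma adjusted p = 0.0151, with 0.0770 without KT replicate 1 and 0.1102 with array weights). In KT against SHAM, limma called 0 genes of any of the 7 lists. At an unadjusted limma p below 0.05 there were 2 of 19 for RANK and NF-kB and 7 of 17 for ITAM and calcium. There were 2 of 12 for transcription factors, 1 of 6 for repressors and 2 of 12 for NFATc1 targets. The counts were 6 of 14 for CSF1R signalling with other IL-34 receptors and 5 of 24 for regulators. Over all genes, 1646 of 11282 had an unadjusted p below 0.05 in this comparison.

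**Figure D4:**
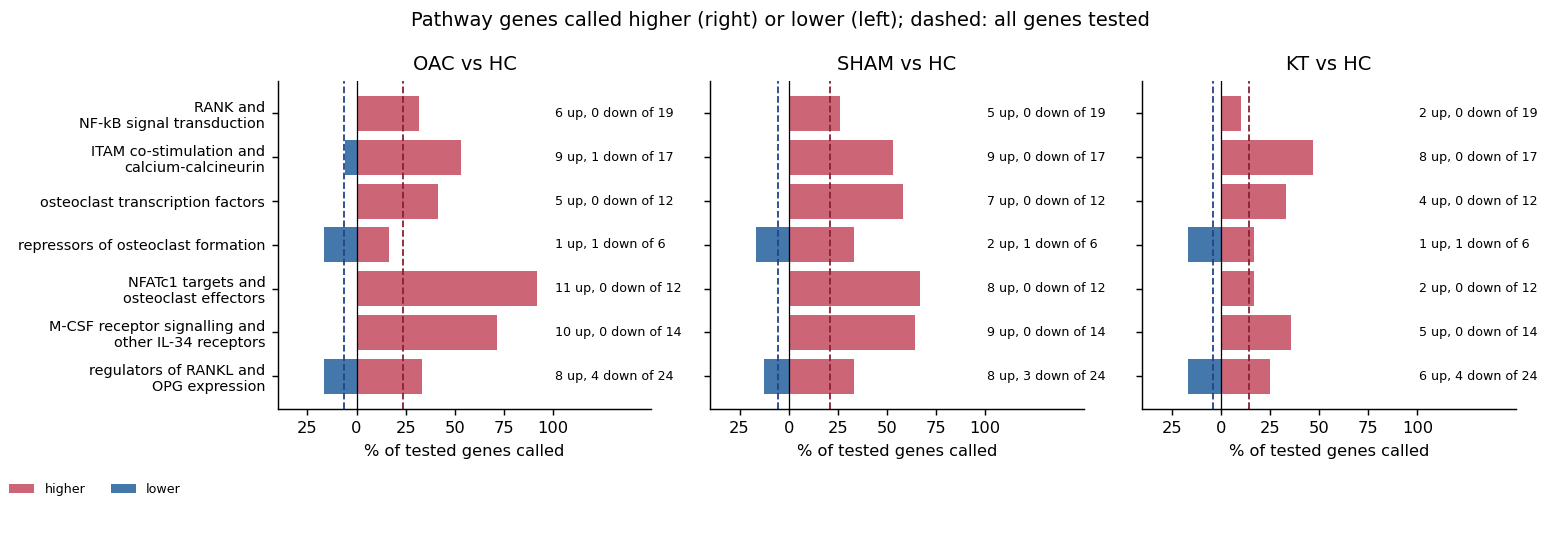
Share of the tested genes of each of the 7 pathway lists called higher or lower (percent; limma adjusted p below 0.05) in OAC, SHAM and KT against HC, with the counts beside the bars and the share over all genes for comparison. NFATc1 targets and osteoclast effectors go from 11 of 12 higher in OAC to 8 in SHAM and 2 in KT; the difference between the groups was not called for any gene of that list.

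Across the 10 libraries, RANK and CSF1R rose and fell together (Pearson r = 0.95 on log2 values), and OPG ran against both (r = −0.82 with RANK and −0.85 with CSF1R). The 10 points share their groups, so the gap between HC and the injected groups enters each value. These are descriptions with no test. The genes most like RANK were Gla, a lysosomal galactosidase (r = 0.98), Atp6v1b2, a proton pump subunit (0.98), and Siglec15, a DAP12-coupled osteoclast receptor (0.97). Those most like CSF1R were Abi3, Coro1c and Gpnmb (each 0.98), and those most like OPG were Emc1, Gprasp1 and Pkd2 (each 0.98). Csf1 was most like Tbc1d9 (0.99), Limk1 and Pla2g15 (each 0.98). Il34 was most like Ctsb, the lysosomal protease cathepsin B (0.98), Stk3 (0.96) and Glb1l (0.95), and Nfatc1 like Nsd1 (0.95), Dvl3 (0.95) and Hivep3 (0.94).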

How the data were processed

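Stranded paired-end mRNA libraries of rat knee cartilage were prepared with a TruSeq kit, per the labels' protocols. Tools the authors used, per the submitters' processing notes, were STAR 2.5.3a, HOMER, FastQC 0.11.2 and DESeq2 1.18.1, with build rn6. HOMER counted exon reads on the minus setting of its strand option and kept 1 transcript per gene, per the file headers, and the authors deposited FPKM. The authors' deposited comparison table holds log2 fold changes with p-values and adjusted p-values from DESeq2.

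Tests on FPKM used limma 3.58.1, R 4.3.3 (log2 with a pseudocount of 1, intensity trend, all 10 libraries in 1 fit with group as the term). The fit recovered known changes in simulated data, planted in OAC only and larger than the change of any member. Recovery of changes of the members' size was not tested. Whole reads were recovered from the FPKM steps: 100% of low values lay within 0.15 of a whole read, against 30% by chance. They were used for depth and for the voom alternative. Symbols are those of the deposited table.

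The 7 members and the 7 pathway and 10 marker lists were chosen with earlier results of these data known. Named genes were the members, up to 3 called genes per pathway list and comparison with the largest absolute change, the first genes of marker lists, and the 3 genes most correlated with each member. Nfatc2 and the ribosomal genes were named after their values were seen. Other settings were a pseudocount of 0.1, no filter, median-of-ratios and quantile scaling, voom on recovered reads, array weights, a replicate block and leaving out each library. Those for list counts and pathway genes were added after the data were seen.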

Additional observations from a re-analysis of the deposited data

How the results depend on the processing

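All called members kept their direction under every alternative run. Over all genes the median log2 difference in OAC against HC was 0.14, and −0.02 under median-of-ratios and quantile scaling, so higher calls made up 78.9% of calls in FPKM, 56.1% with median-of-ratios and 57.5% with quantile scaling. In SHAM against HC these shares were 79.3, 56.7 and 56.4%, in KT against HC 78.3, 56.7 and 60.4%, and in KT against OAC 64.4% in FPKM and 75.7% with quantile scaling. Array weights changed the genes called from 3348 to 1974 in OAC against HC, 131 to 324 in SHAM against OAC, 2986 to 1628 in SHAM against HC and 2057 to 493 in KT against HC, and the members called in KT against HC from 4 to 1. In KT against OAC, 45 genes became 20 without the filter and 25 with voom on recovered reads. The cause was not tested.

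Same-numbered libraries of different groups correlated at −0.479 to 0.486 in their deviations from the group mean, and differently numbered ones at −0.715 to 0.715. In a group of 2 the deviations mirror each other, so their correlations come with opposite signs. Whether replicate numbers pair the samples therefore cannot be told from these values. With the replicate block, the genes called were 2206 in OAC against HC, 1951 in SHAM against HC, 1116 in KT against HC and 13 in KT against OAC, and 2 members were called in KT against HC. Leaving out 1 library gave 2163 to 3098 genes in OAC against HC, 54 to 91 in SHAM against OAC, 45 to 116 in KT against SHAM, 1968 to 2961 in SHAM against HC, 972 to 2205 in KT against HC and 4 to 312 in KT against OAC, and 1 to 3 members in KT against HC. With a single HC or KT library left, it is assumed to vary like the other groups.

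Differences that changed sign were all uncalled. With array weights Nfatc1 was 0.0264 in OAC against HC and Il34 0.0259 in SHAM against OAC. Median-of-ratios and quantile scaling gave Il34 0.0136 and 0.00938 in SHAM against OAC, and quantile scaling gave Tnfrsf11b −0.00745 in KT against SHAM. Leaving out 1 library gave Nfatc1 −0.197 to 0.184 in OAC against HC, −0.167 to 0.0461 in SHAM against OAC and −0.249 to 0.132 in SHAM against HC, and Il34 −0.0438 to 0.0433 in SHAM against OAC. In KT against SHAM it gave Tnfrsf11a −0.612 to 0.0366, Tnfrsf11b −0.0794 to 0.194 and Csf1r −0.490 to 0.140, and in KT against OAC it gave Csf1 −0.288 to 0.0693. Tnfsf11 has 1 read in all, for which the cause was not tested, and having 2 libraries limits every comparison with HC or KT.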
